A study of Homo sapiens with 39 samples.

Results

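Immediate early genes are transcribed within minutes of a stimulus from factors already present in the cell, and their protein products then set the transcription of later genes. The 10 members described here were FOS, FOSB, JUN, JUNB, JUND, EGR1, EGR2, EGR3, ATF3 and IER2. They were chosen by name, with earlier results of these data known. Each was found once by its Ensembl identifier among the 15808 genes of the deposited count table. All 10 passed the filter on low counts that left 12814 genes for testing.

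The study measured RNA in 4 human B cell lymphoma lines, DOHH2, OCILy10, TMD8 and Toledo, in 39 libraries that formed 13 groups of 3. In each line 1 group received the vehicle DMSO alone, 1 group OTX015, known as an inhibitor of the BET bromodomain proteins, and 1 group NEO2734, known as an inhibitor of both the BET and the CBP/p300 bromodomains. OCILy10 had a further group that received CB103, a compound that blocks transcription by the Notch complex. Every group was labelled as treated for 6 h, so no earlier time after addition was measured. The labels stated no dose, and a protocol text common to all samples named other compounds and a second, longer time. Each group is therefore named by its own sample label. The lines are established cultures, each of them a single line, and the labels are silent on whether replicates were grown separately. All p-values measure the spread between libraries, which may be technical.

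FOS and FOSB proteins pair through a leucine zipper with JUN, JUNB or JUND to form AP-1, which binds DNA at TGANTCA sites, and JUN proteins also pair with each other and with ATF proteins. EGR1, EGR2 and EGR3 are zinc finger factors that bind GC-rich sites, and in B cells their transcripts and those of FOS and JUN are known to rise within the hour when the antigen receptor is engaged. ATF3 is a stress-induced partner of the JUN proteins, and IER2 encodes a small nuclear protein whose transcript rises with the others. Promoters of this class are known for serum response elements, bound by SRF with ternary complex factors, and for cyclic AMP response elements, bound by CREB and ATF proteins.

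RefSeq start sites on GRCh38.p14 were at hand for 9 of the 10 members, with 12 starts in all, and the 250 bases before each start were searched on both strands. The windows of the 4 members with the most even response to the compounds, FOS, FOSB, JUND and EGR1, are shown with that of EGR2, an EGR member that did not follow them. They run 5′ to 3′ along the gene and end on the base before the start. Capitals mark serum response elements, the full cyclic AMP response element TGACGTCA, the EGR site GCGNGGGCG and the TATA box TATAAA.
The FOS window, chr14:75278578-75278827 on the plus strand, is shown for its TATA box.
FOS: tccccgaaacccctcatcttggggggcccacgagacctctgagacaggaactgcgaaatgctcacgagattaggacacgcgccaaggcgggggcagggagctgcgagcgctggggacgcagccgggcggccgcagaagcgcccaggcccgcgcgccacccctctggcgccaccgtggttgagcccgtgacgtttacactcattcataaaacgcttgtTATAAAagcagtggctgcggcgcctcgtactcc
The FOSB window, chr19:45467746-45467995 on the plus strand, also has a TATA box.
FOSB: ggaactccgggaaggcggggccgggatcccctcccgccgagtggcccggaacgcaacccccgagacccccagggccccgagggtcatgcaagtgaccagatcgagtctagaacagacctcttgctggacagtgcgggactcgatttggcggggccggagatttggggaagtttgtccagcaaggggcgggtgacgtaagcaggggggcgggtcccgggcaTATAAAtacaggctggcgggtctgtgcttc
The JUND window, chr19:18281623-18281872 on the minus strand, holds the full cyclic AMP response element.
JUND: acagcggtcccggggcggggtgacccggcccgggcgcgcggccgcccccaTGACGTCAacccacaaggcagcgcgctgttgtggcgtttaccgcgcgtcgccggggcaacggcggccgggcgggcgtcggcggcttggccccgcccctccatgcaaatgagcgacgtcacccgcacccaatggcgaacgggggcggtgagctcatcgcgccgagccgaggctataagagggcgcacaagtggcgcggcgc
The EGR1 window, chr5:138465229-138465478 on the plus strand, holds 2 serum response elements and an EGR site.
EGR1: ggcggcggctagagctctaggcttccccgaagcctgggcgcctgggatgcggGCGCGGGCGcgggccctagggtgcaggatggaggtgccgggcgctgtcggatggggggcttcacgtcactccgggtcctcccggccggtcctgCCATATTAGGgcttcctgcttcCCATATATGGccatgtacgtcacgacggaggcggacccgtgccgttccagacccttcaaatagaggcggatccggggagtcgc
The EGR2 window, chr10:62816367-62816616 on the minus strand, belongs to the third of 3 starts and holds 1 serum response element.
EGR2: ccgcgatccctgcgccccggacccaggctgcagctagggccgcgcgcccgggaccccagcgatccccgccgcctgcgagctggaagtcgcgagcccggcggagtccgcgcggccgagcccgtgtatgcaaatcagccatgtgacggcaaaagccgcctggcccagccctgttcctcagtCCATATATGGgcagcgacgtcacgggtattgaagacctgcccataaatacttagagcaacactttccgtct
In EGR1 the serum response elements were CCATATTAGG at -105 to -96 and CCATATATGG at -83 to -74, counted from the start site with -1 as the base before it. EGR2 had CCATATATGG at -71 to -62. A serum response element was present in 1.16% of 35116 RefSeq promoter windows of the same length, and the full cyclic AMP response element, found in JUND at -200 to -193, in 1.65%. The shorter TGACG, which lies inside the full element, was found in 8 of the 9 members. Counted by window, it was in 8 of the 12 and in 21.2% of all windows. TATAAA, present in FOS, FOSB, JUNB and the second ATF3 start, was in 10.7% of all windows, and GCGNGGGCG, present in EGR1, in 8.41%. The ATF3 match to TATAAA lay far from the start, at -230 to -225, against -33 to -28 in FOS, -30 to -25 in FOSB and -31 to -26 in JUNB. No member's window held TGANTCA, which was in 6.57% of all windows. These are matches of letters within 250 bases and no measurement of binding.

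Library totals ranged from 1000281 to 11668542 counts, in 15 deep libraries of at least 6670250 and 24 shallow ones of at most 3420458. The labels name no batch for this split, and each group held at least 1 library of each kind. Only OCILy10 DMSO and OCILy10 NEO2734 held more than 1 deep library, and they held 1 shallow library each. A fit on deep libraries alone therefore takes its spread from these groups, and only its estimates are given. In OCILy10 replicate 2 was deep with DMSO and NEO2734 and shallow with OTX015 and CB103. Depth was therefore unbalanced in that line where OTX015 or CB103 was set against DMSO, and OTX015 against NEO2734. Mitochondrial genes took 5.31 to 12.7% of counts. B cell markers, 6 of 6 present, summed to between 391 and 3900 CPM (counts scaled to the effective library size) in every library. T cell, monocyte and fibroblast markers had 1 of 5, 2 of 5 and 1 of 3 genes in the table, with highest sums of 14.9, 4.79 and 13.6 CPM. Genes private to 1 line stood at no more than 2.18% of their level in libraries of other lines, with 3 exceptions, called the mixed libraries here. In Toledo DMSO replicate 2 the OCILy10 genes reached 72.2% of their OCILy10 level and the Toledo genes 37.0% of their own. In OCILy10 CB103 replicate 2 the Toledo genes reached 25.8%, and in DOHH2 NEO2734 replicate 3 the OCILy10 genes reached 10.6%. HEXIM1, a gene known to rise with BET inhibition, rose by 2.10 ± 0.24 (log2, SE) with NEO2734 and 1.85 ± 0.24 with OTX015 over the 4 lines.

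Averaged over the 4 lines, FOS, FOSB, JUND, EGR1 and IER2 rose with both bromodomain inhibitors. With NEO2734 the rises ran from 1.61-fold for IER2 to 5.44-fold for FOS, and 5 of 10 members were called higher and 0 lower, where 9.29% of all tested genes were called higher and 20.5% were called in either direction. With OTX015 the same 5 of 10 members were called, against 5.53% higher and 11.6% in either direction among all genes. Each of these OTX015 calls was lost in some fits with 1 library left out, as given below. The median log2 fold change of the 10 members was 0.65 with NEO2734 and 0.58 with OTX015, and that of all tested genes was -0.02 and -0.03. Both compounds were set against the same DMSO libraries, so the 2 lists are not independent of each other. The members were chosen with earlier results of these data known, so these shares only describe the list. JUN, JUNB, EGR2, EGR3 and ATF3 were not called on average, and with NEO2734 each of them had estimates of both signs among the 4 lines. The summed B cell markers were lower with the inhibitors in most lines. Their group medians with DMSO and NEO2734 were 1126 and 506 CPM in DOHH2, 2098 and 1224 in OCILy10, 3271 and 1642 in TMD8 and 1496 and 1112 in Toledo, and only the Toledo groups overlapped. With OTX015 the medians were 556, 1465, 2102 and 1641 CPM in the same order. The 1 T cell gene present had a median of 9.79 CPM in OCILy10 with DMSO and 1.31 with NEO2734. The part of these shifts in the members' changes was not tested. In bulk RNA, a change in the number of cells that transcribe a gene and a change in RNA per cell cannot be told apart.

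**Figure D1:**
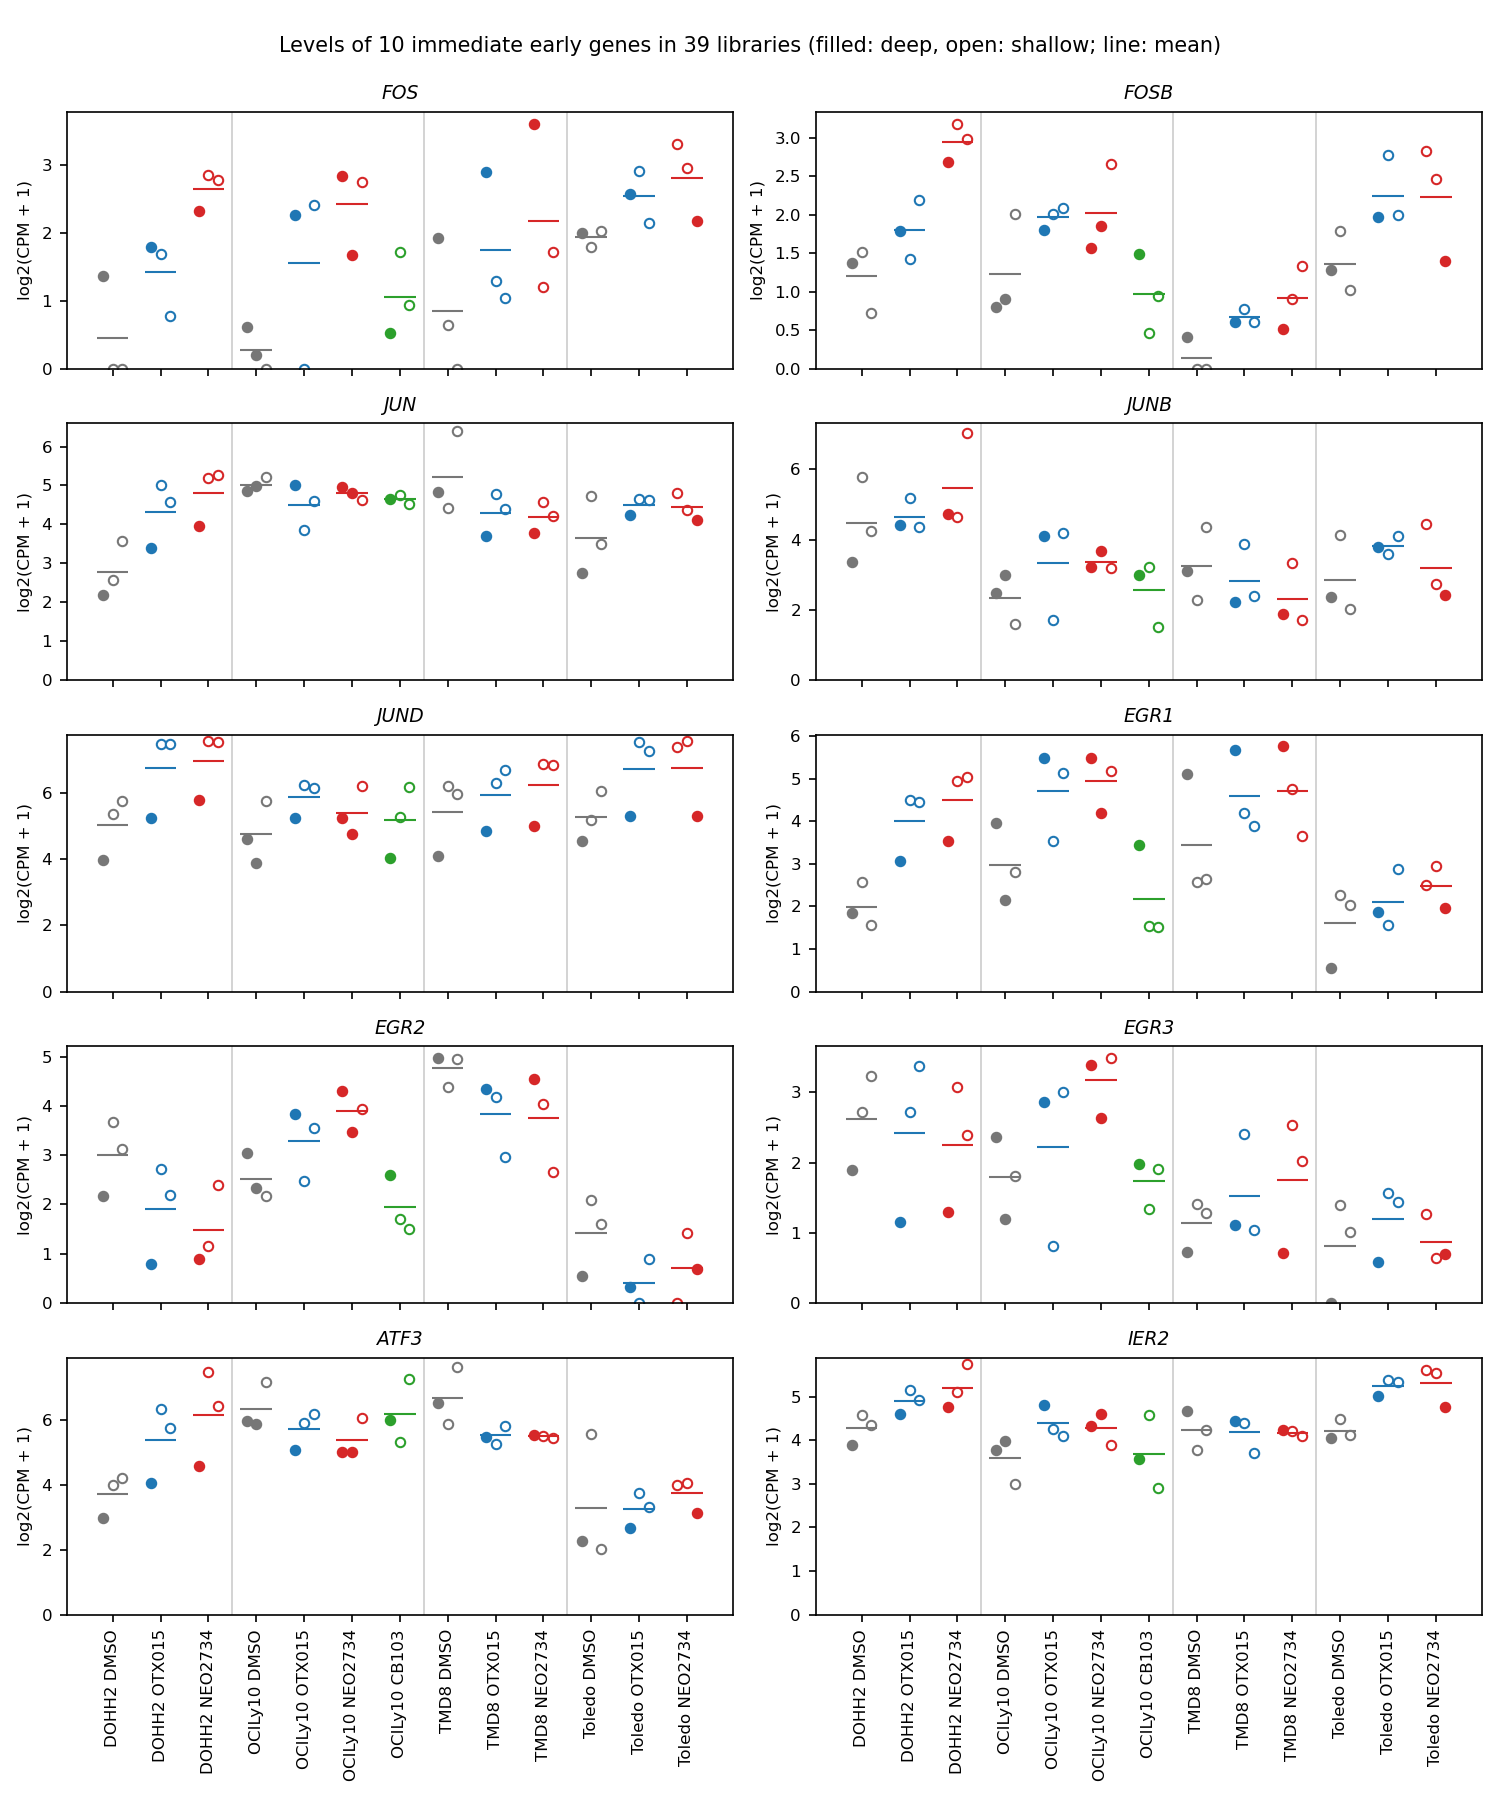
Level of each member, as log2(CPM + 1), in every library of the 13 groups; filled points are deep and open points shallow libraries, grey is DMSO, blue OTX015, red NEO2734 and green CB103, and the short line is the group mean of the plotted values. FOS, FOSB, JUND and EGR1 sit higher with both inhibitors than with DMSO in most lines, while the ATF3 means are higher in DOHH2 and lower in OCILy10 and TMD8.

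FOS, the founding FOS protein gene (ENSG00000170345.8, chr14:75278774-75282230, plus strand, GENCODE 29), was scarce in vehicle. DOHH2 libraries held 1.59, 0 and 0 CPM with DMSO, 2.46, 2.23 and 0.717 with OTX015 and 3.99, 6.22 and 5.84 with NEO2734, replicates 1 to 3 in order. OCILy10 libraries had 0.532, 0.144 and 0 CPM with DMSO, 3.79, 0 and 4.31 with OTX015 and 6.19, 2.18 and 5.704 with NEO2734. NEO2734 libraries lay above every DMSO library in both lines, whereas OCILy10 OTX015 replicate 2 had no FOS count. TMD8 had 2.81, 0.554 and 0 CPM with DMSO, 6.47, 1.43 and 1.05 with OTX015 and 11.2, 1.31 and 2.29 with NEO2734. Toledo had 2.999, 2.46 and 3.07 CPM with DMSO, 4.93, 6.53 and 3.41 with OTX015 and 8.89, 6.75 and 3.501 with NEO2734. In TMD8 the deep library of each group stood far above its shallow ones and the groups overlapped; in Toledo they did not. These levels rest on few reads, from 6 counts over the 3 OCILy10 DMSO libraries to 111 over the 3 TMD8 NEO2734 libraries. The mean log2 fold change was 2.44 ± 0.52 with NEO2734 (adjusted p = 0.000953, edgeR quasi-likelihood test, Benjamini-Hochberg) and 1.64 ± 0.52 with OTX015 (adjusted p = 0.0366). With NEO2734, deep libraries alone gave an estimate of 1.75 and shallow libraries alone 4.22.

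FOSB, a second FOS protein gene (ENSG00000125740.12, chr19:45467995-45475179, plus strand), was the scarcest member per length of transcript. Levels in DOHH2 were 1.59, 1.86 and 0.647 CPM with DMSO, 2.46, 1.67 and 3.58 with OTX015 and 5.44, 8.09 and 6.897 with NEO2734. OCILy10 values were 0.745, 0.864 and 3.01 CPM with DMSO, 2.4998, 3.02 and 3.23 with OTX015 and 1.97, 2.61 and 5.297 with NEO2734. The DOHH2 NEO2734 libraries stood apart from both other groups, and in OCILy10 the high shallow DMSO library overlapped the treated ones. TMD8 held only 3 FOSB counts over its DMSO libraries, 6 with OTX015 and 8 with NEO2734, and the ratios to DMSO were 2.47 (95% exact counting interval 0.527 to 15.2) and 2.77 (0.665 to 16.2). Toledo had 1.42, 2.46 and 1.02 CPM with DMSO, 2.91, 5.88 and 2.98 with OTX015 and 6.08, 4.502 and 1.65 with NEO2734. The mean change was 1.67 ± 0.36 with NEO2734 (adjusted p = 0.000951) and 1.14 ± 0.36 with OTX015 (adjusted p = 0.0364). By DESeq2 the change with OTX015 was not called (1.11, adjusted p = 0.0788). FOSB overlaps ERCC1 on the opposite strand, and the strandedness of the libraries is not given in the sources used here, so reads of the 2 genes cannot be told apart. Of the summed FOS and FOSB level per kilobase of exon, FOS made up 25.8% ± 27.7 (SD, n = 3) in OCILy10 DMSO, where the libraries ran from 0 to 55.1%, and 69.4% ± 13.3 in OCILy10 NEO2734. In DOHH2 the share was 21.1% ± 36.5 with DMSO and 57.3% ± 1.78 with NEO2734. It was lower with NEO2734 in TMD8, at 96.8% in the 2 DMSO libraries with any count of either and 80.6% ± 14.9 with NEO2734, and near level in Toledo, at 75.1% ± 10.7 and 74.0% ± 3.89. These differences between lines were not tested.

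JUND, the JUN protein known to be present in resting cells (ENSG00000130522.5, chr19:18279760-18281622, minus strand), was the most abundant member per kilobase of exon, at a mean of 41.0 CPM per kb over the 39 libraries. The DOHH2 values were 14.7, 40.2 and 53.03 CPM with DMSO, 36.9, 179 and 178 with OTX015 and 53.96, 190.3 and 185 with NEO2734. Toledo had 22.6, 34.97 and 65.5 CPM with DMSO, 38.8, 187 and 152 with OTX015 and 167, 188 and 38.2 with NEO2734. In each set the lowest value came from the deep library, and the DOHH2 NEO2734 libraries lay above all DMSO ones only by the gap from 53.0 to 54.0 CPM, while the Toledo groups overlapped. OCILy10 had 23.5, 13.8 and 52.7 CPM with DMSO, 36.8, 74.7 and 70.1 with OTX015 and 36.6, 25.8 and 73.3 with NEO2734. TMD8 had 16.2, 73.1 and 61.03 CPM with DMSO, 28.1, 78.2 and 102 with OTX015 and 31.05, 116 and 113 with NEO2734. The deep mean was higher than the shallow one in 0 of 13 groups, with a median log2 ratio of -1.78, the most uneven member in this respect. The mean change was 1.28 ± 0.39 with NEO2734 (adjusted p = 0.0168) and 1.26 ± 0.39 with OTX015 (adjusted p = 0.0311). With depth class as a factor the same changes were 1.23 ± 0.14 and 1.08 ± 0.14, with adjusted p-values of 5.74e-08 and 2.08e-06. Within depth, the estimate with NEO2734 was 1.06 in deep libraries alone and 1.28 in shallow ones. Without the 3 mixed libraries, the adjusted p with NEO2734 was 0.0559 at a change of 1.21.

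JUN, the gene of c-Jun (ENSG00000177606.6, chr1:58780788-58784327, minus strand), had estimates of opposite sign in different lines. In DOHH2 it measured 3.51, 4.95 and 10.99 CPM with DMSO, 9.47, 31.2 and 22.9 with OTX015 and 14.6, 35.5 and 37.7 with NEO2734. TMD8 had 27.5, 20.5 and 83.1 CPM with DMSO, 12.04, 26.5 and 20.003 with OTX015 and 12.8, 22.7 and 17.6 with NEO2734. The treated DOHH2 libraries were high and those of NEO2734 lay apart from DMSO, while in TMD8 the groups overlapped below 1 high DMSO library. JUN rose with NEO2734 in DOHH2 by 2.22 ± 0.56 (adjusted p = 0.0226), in a contrast where 2.90% of all tested genes were called. That call held in 2 of 6 fits that left out 1 library each, and was lost when DMSO replicate 1 (1.86, adjusted p = 0.124) or 2 (2.09, 0.116), or replicate 2 (2.06, 0.0859) or 3 (1.99, 0.108) of NEO2734, was dropped. The TMD8 estimate was -1.31 ± 0.52 (adjusted p = 0.259), the OCILy10 one -0.22 ± 0.50, and the mean over the lines 0.32 ± 0.26 (adjusted p = 0.464). In Toledo DMSO replicate 2, one of the libraries with another line's genes, JUN measured 25.4 CPM against 5.68 and 10.2 in the other 2. Without the 3 such libraries the Toledo estimate with NEO2734 moved from 0.59 to 1.47 ± 0.60 (adjusted p = 0.363), and the DOHH2 call was lost (2.01 ± 0.56, adjusted p = 0.0698).

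JUNB, which pairs like JUN and is known to restrain its activity (ENSG00000171223.5, chr19:12791496-12793315, plus strand), was uneven between replicates. DOHH2 libraries held 9.295, 53.8 and 18.1 CPM with DMSO, 20.5, 35.7 and 19.4 with OTX015 and 25.4, 24.3 and 131 with NEO2734. The OCILy10 values were 4.58, 6.91 and 2.01 CPM with DMSO, 16.1, 2.26 and 17.2 with OTX015 and 8.34, 11.7 and 8.15 with NEO2734. Only in OCILy10 with NEO2734 did the treated libraries lie above all DMSO libraries, and TMD8 and Toledo groups overlapped. The 131 CPM came from DOHH2 NEO2734 replicate 3, a mixed library. In Toledo the highest DMSO value, 16.7 CPM, came from the mixed replicate 2. The remaining Toledo DMSO libraries had 4.10 and 3.07 CPM, below the lowest NEO2734 value of 4.32. The mean change was 0.33 ± 0.41 with NEO2734 (adjusted p = 0.690), and JUNB overlaps HOOK2 on the opposite strand. Over the JUN proteins together, JUND had the largest mean share per kilobase in every group. It ran from 54.6% ± 17.0 (SD, n = 3) in OCILy10 DMSO to 83.9% ± 7.05 in TMD8 NEO2734. Single OCILy10 DMSO libraries ran from 37.4 to 71.4% for JUND and from 25.8 to 43.5% for JUN. The share of JUN was 28.3% ± 14.0 in TMD8 DMSO, 12.9% ± 3.81 with OTX015 and 10.9% ± 4.99 with NEO2734. Its TMD8 libraries ran from 12.3 to 37.7% with DMSO and from 7.42 to 16.6% with NEO2734. These shares were not tested.

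EGR1, the best known of the EGR zinc finger genes (ENSG00000120738.7, chr5:138465490-138469315, plus strand), rose in mean level with both inhibitors. Levels in DOHH2 were 2.61, 4.95 and 1.94 CPM with DMSO, 7.38, 21.8 and 20.8 with OTX015 and 10.5, 29.9 and 31.8 with NEO2734. OCILy10 had 14.6, 3.46 and 6.02 CPM with DMSO, 43.8, 10.6 and 33.96 with OTX015 and 44.1, 17.3 and 35.04 with NEO2734. All 3 NEO2734 libraries exceeded all 3 DMSO libraries in both lines, and so did the DOHH2 OTX015 libraries. TMD8 had 33.3, 4.99 and 5.29 CPM with DMSO, 50.1, 17.2 and 13.7 with OTX015 and 53.7, 25.8 and 11.5 with NEO2734. Toledo was lowest, with 0.474, 3.82 and 3.07 CPM with DMSO, 2.65, 1.96 and 6.39 with OTX015 and 4.68, 6.75 and 2.88 with NEO2734. In TMD8 the deep library of each group was the highest, and in Toledo the groups overlapped. The mean change was 1.74 ± 0.42 with NEO2734 (3.34-fold, adjusted p = 0.00338) and 1.45 ± 0.42 with OTX015 (adjusted p = 0.0226). With NEO2734 the estimates were 1.73 in deep libraries alone and 2.04 in shallow ones.

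EGR2, a paralogue that in lymphocytes is known for its part in restraining activation (ENSG00000122877.12, chr10:62811996-62919900, minus strand), did not follow EGR1. The DOHH2 values were 3.51, 11.8 and 7.76 CPM with DMSO, 0.738, 5.58 and 3.58 with OTX015 and 0.847, 1.24 and 4.24 with NEO2734. OCILy10 had 7.24, 4.03 and 3.51 CPM with DMSO, 13.2, 4.53 and 10.8 with OTX015 and 18.8, 10.01 and 14.3 with NEO2734. The OCILy10 NEO2734 libraries stood above all DMSO libraries, whereas those of DOHH2 were low and 1 of them overlapped DMSO. TMD8 had the highest vehicle level, with 30.2, 19.9 and 29.8 CPM with DMSO, 19.3, 17.2 and 6.84 with OTX015 and 22.2, 15.3 and 5.35 with NEO2734. The NEO2734 estimates were -1.91 ± 0.82 in DOHH2, 1.52 ± 0.74 in OCILy10, -0.88 ± 0.72 in TMD8 and -1.35 ± 0.91 in Toledo, and none was called (adjusted p from 0.234 to 0.798). The means over the lines were -0.65 ± 0.39 with NEO2734 (adjusted p = 0.283) and -0.87 ± 0.40 with OTX015 (adjusted p = 0.184). With the replicate number as a block within each line, EGR2 was called lower with OTX015 (-0.83 ± 0.28, adjusted p = 0.0410) and with NEO2734 in DOHH2 (-1.87 ± 0.53, adjusted p = 0.0315).

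EGR3, the third EGR member (ENSG00000179388.8), had a group mean of at most 8.29 CPM and was not called with either inhibitor, with mean changes of 0.62 ± 0.48 (adjusted p = 0.435) and 0.55 with NEO2734 and OTX015. It had 4.15, 1.296 and 2.51 CPM in OCILy10 DMSO libraries and 9.47, 5.22 and 10.2 with NEO2734, 2 groups that did not overlap. EGR3 overlaps a long non-coding gene on the opposite strand. Per kilobase, EGR1 made up 25.3% ± 10.8 (SD, n = 3) of the EGR sum in DOHH2 DMSO, 75.2% ± 7.56 with OTX015 and 84.4% ± 1.70 with NEO2734. There EGR2 made up 47.3% ± 6.63, 11.0% ± 4.37 and 6.11% ± 3.25. In TMD8 the EGR1 share was 31.5% with DMSO and 66.3% with NEO2734. Its share was 54.5% ± 8.94 and 63.7% ± 3.93 in OCILy10, and 53.3% ± 3.19 and 79.5% ± 4.05 in Toledo. These shares were not tested.

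**Figure D2:**
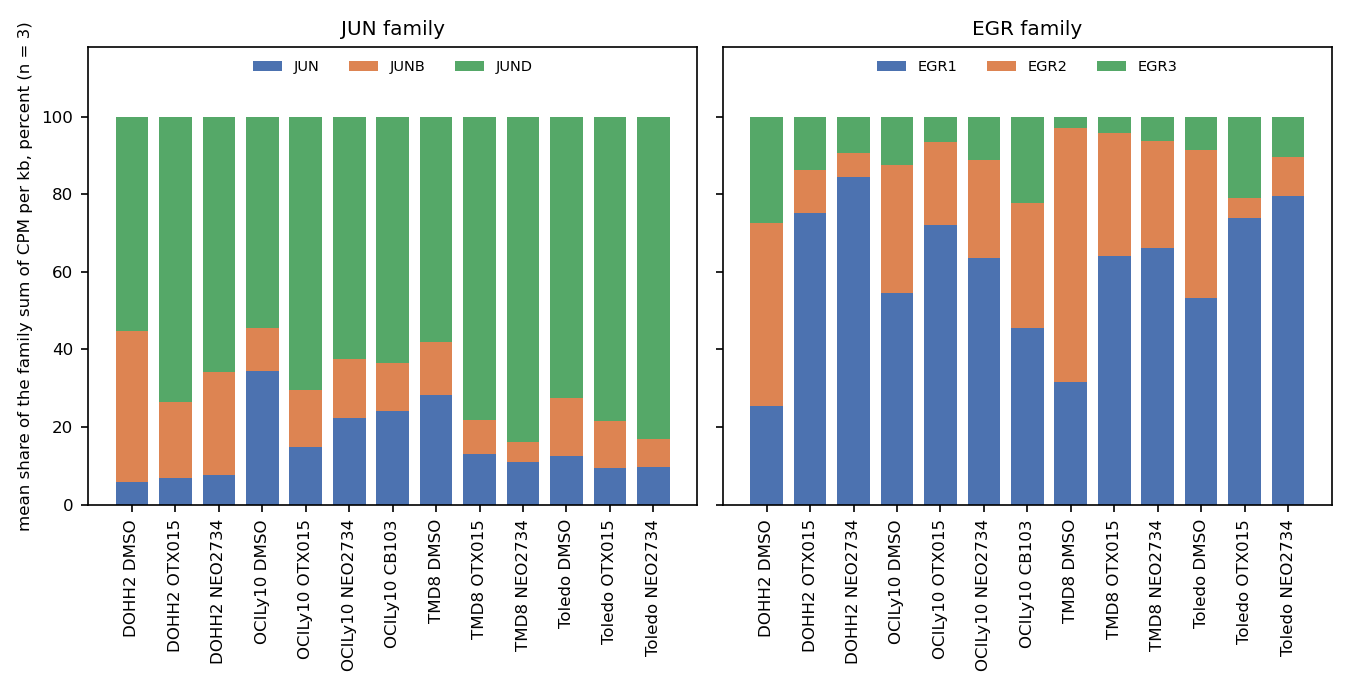
Mean share over 3 libraries, in percent, of each JUN member in the summed JUN, JUNB and JUND level (left) and of each EGR member in the summed EGR1, EGR2 and EGR3 level (right), both from CPM per kilobase of exon, in the 13 groups. JUND holds a mean of at least 54.6% of its family in every group, and EGR1 holds a mean of 25.3% in DOHH2 with DMSO and 84.4% with NEO2734.

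ATF3, the stress-induced partner of the JUN proteins (ENSG00000162772.15, chr1:212565334-212620777, plus strand), was high in vehicle in OCILy10 and TMD8 and low in DOHH2 and Toledo. In DOHH2 it measured 6.91, 14.9 and 17.5 CPM with DMSO, 15.7, 78.7 and 52.3 with OTX015 and 22.99, 177 and 84.9 with NEO2734. TMD8 had 90.2, 57.1 and 198 CPM with DMSO, 43.5, 37.3 and 55.3 with OTX015 and 45.4, 44.6 and 42.1 with NEO2734. NEO2734 libraries lay above DMSO in DOHH2 and below DMSO in TMD8, with no overlap in either line. OCILy10 had 61.4, 57.2 and 142 CPM with DMSO, 32.8, 58.1 and 70.6 with OTX015 and 31.4, 31.5 and 65.2 with NEO2734. Toledo had 3.79, 45.9 and 3.07 CPM with DMSO, 5.31, 12.4 and 8.95 with OTX015 and 14.97, 15.8 and 7.72 with NEO2734. The one high Toledo vehicle library, replicate 2, was that in which OCILy10 genes were found. ATF3 rose with NEO2734 in DOHH2 by 2.90 ± 0.80 (adjusted p = 0.0418), and this was called in 1 of 6 fits with 1 library left out, being lost when any vehicle library, or replicate 2 or 3 of NEO2734, was dropped (adjusted p up to 0.238). The TMD8 estimate was -1.38 ± 0.73 (adjusted p = 0.497) and the OCILy10 one -1.02 ± 0.73 (adjusted p = 0.731). In Toledo the estimate was -0.56 ± 0.77, and it was 1.77 ± 0.84 (adjusted p = 0.494) without the 3 mixed libraries. The mean over the lines was -0.02 ± 0.38 with all libraries and 0.59 ± 0.34 (adjusted p = 0.281) without those 3. With OTX015 the Toledo estimate turned from -1.11 to 1.19 ± 0.84 (adjusted p = 0.80034) and the mean from -0.30 to 0.28 ± 0.34 (adjusted p = 0.743) in the same way.

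IER2, whose promoter window held TGACG alone of the motifs searched (ENSG00000160888.6, chr19:13150415-13154908, plus strand), changed least of the called members. DOHH2 libraries held 13.8, 22.9 and 19.4 CPM with DMSO, 23.4, 34.6 and 29.4 with OTX015 and 26.01, 33.6 and 53.1 with NEO2734. Toledo had 15.6, 21.6 and 16.4 CPM with DMSO, 31.2, 40.5 and 39.6 with OTX015 and 48.2, 45.6 and 26.3 with NEO2734. Both inhibitors separated fully from vehicle in Toledo, and in DOHH2 as well. TMD8 had 24.6, 12.7 and 17.8 CPM with DMSO, 20.7, 20.1 and 12.1 with OTX015 and 17.7, 17.5 and 16.1 with NEO2734, and these groups overlapped. OCILy10 had 12.7, 14.8 and 7.03 CPM with DMSO, 27.2, 18.1 and 16.2 with OTX015 and 19.2, 23.2 and 13.9 with NEO2734, where only the OTX015 libraries cleared all vehicle ones. The mean change was 0.68 ± 0.18 with NEO2734 (adjusted p = 0.00722) and 0.61 ± 0.18 with OTX015 (adjusted p = 0.0270). IER2 overlaps another annotated gene on the opposite strand.

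**Figure D3:**
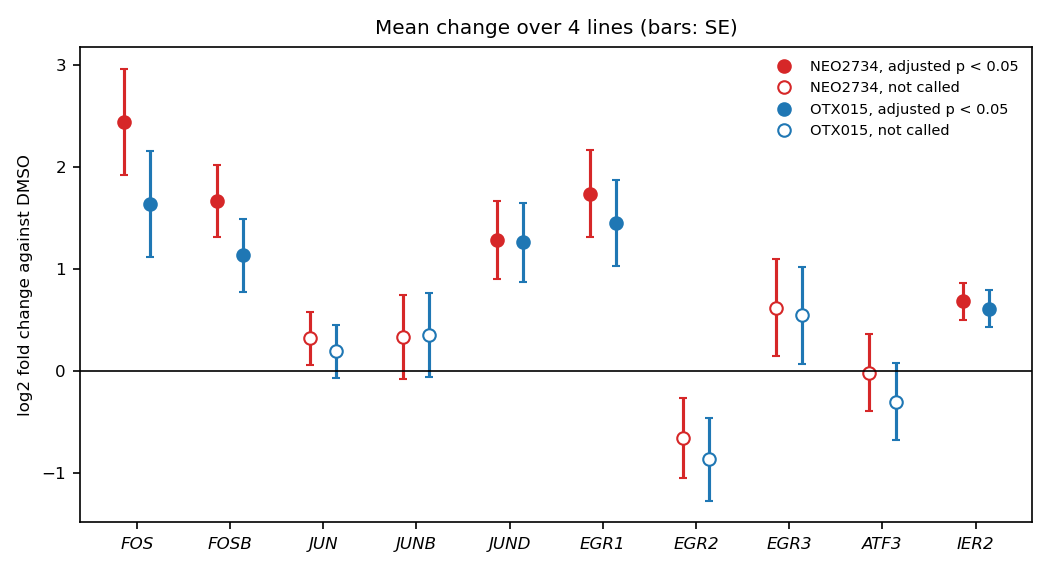
Log2 fold change against DMSO, averaged over the 4 lines, for each member with NEO2734 (red) and OTX015 (blue); bars are SE, filled points have an adjusted p under 0.05. FOS, FOSB, JUND, EGR1 and IER2 are filled for both compounds. The open points of EGR2 and ATF3 lie below 0, that of ATF3 with NEO2734 by much less than its SE.

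The calls were also read with single libraries left out. When each of the 24 DMSO and NEO2734 libraries was left out in turn, FOS, FOSB, JUND, EGR1 and IER2 were called in 24 of 24 fits each. With OTX015, over its own 24 fits, EGR1 was called in 22, IER2 in 20, FOSB and JUND in 12 and FOS in 11. The highest adjusted p among them was 0.123, for FOS without TMD8 OTX015 replicate 1. Deep libraries alone gave 1 called member with NEO2734, JUND (5.01% of all genes), and 0 by edgeR with OTX015 (0.427%), where 7 members had an unadjusted p under 0.05 (18.3% of all genes); DESeq2 was not run on them. Shallow libraries alone gave 5 and 3, against 14.0% and 7.36% of all genes. Without the 3 mixed libraries the called members went from 5 to 4 with NEO2734 (16.3% of all genes), JUND being lost, and from 5 to 3 with OTX015 (9.45%), since FOS (1.62 ± 0.55, adjusted p = 0.0642) and JUND (1.25 ± 0.43, adjusted p = 0.0644) were no longer called with OTX015.

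Since depth split the libraries within groups, each line was also read within depth, in 8 strata of 1 or 2 libraries per group. FOS, FOSB, JUND and EGR1 were higher with NEO2734 than with DMSO, with no overlap, in 8 of 8 strata, as were 3.20% of all tested genes. IER2 was higher in 6 of 8. With OTX015, JUND was higher in 8 of 8 strata, as were 1.81% of all genes, and FOS, FOSB and EGR1 in 7 of 8, while 5.43% of all genes were higher in at least 7. EGR2 was lower in 5 strata with NEO2734 and 6 with OTX015, and higher in 3 and 2. ATF3 was higher in 3 and lower in 4 strata with either compound. Some gaps were small. With NEO2734 and DMSO, FOSB measured 0.427 and 0.324 CPM in the TMD8 deep stratum and 1.65 and 1.42 CPM in the Toledo deep one. Over the TMD8 libraries FOSB had 8 counts with NEO2734 and 3 with DMSO. Deep strata mostly set 1 library against 1, so these counts are a description.

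**Figure D4:**
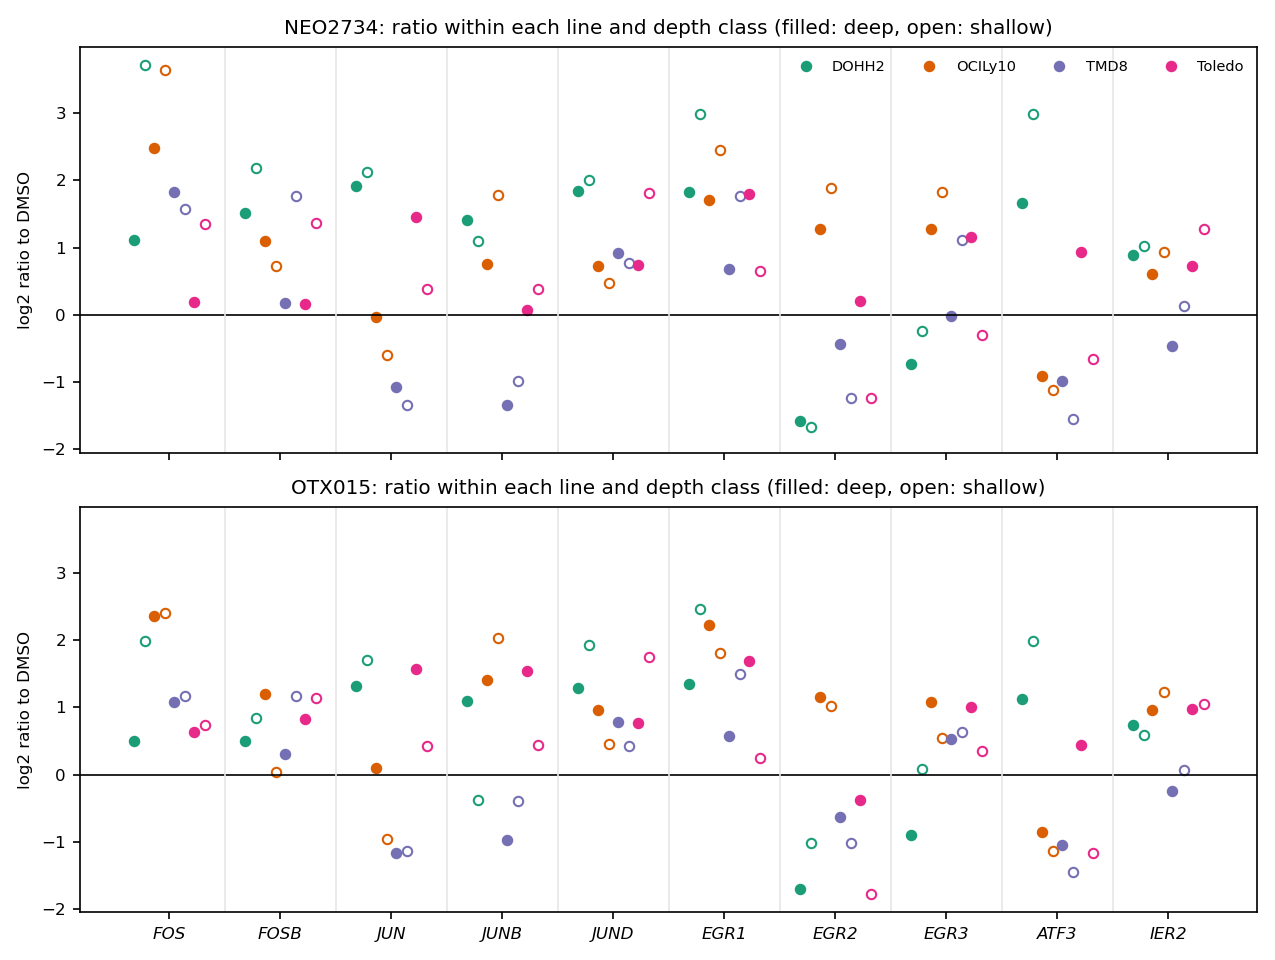
Log2 ratio of mean CPM (plus 0.5) with NEO2734 (top) or OTX015 (bottom) to mean CPM (plus 0.5) with DMSO, within each line and depth class; filled points are deep and open points shallow libraries. With NEO2734 all 8 points of FOS, FOSB, JUND and EGR1 lie above 0, and the points of JUN, EGR2 and ATF3 lie on both sides.

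Within single lines few members were called. With NEO2734 in DOHH2, JUN and ATF3 were called by edgeR, as given above. DESeq2 called them and also EGR1 (adjusted p = 0.0126). In that line 7 of 10 members (FOS, FOSB, JUN, JUND, EGR1, ATF3 and IER2) were higher with no overlap, as were 8.64% of all genes. With the replicate number as a block within each line, chosen after seeing the data, 7 of 10 members were called there, as were 7.42% of all genes: FOSB, JUN, JUND, EGR1, ATF3 and IER2 higher and EGR2 lower. OCILy10 with NEO2734 had 5 members higher without overlap, FOS, JUNB, EGR1, EGR2 and EGR3, against 9.77% of all genes, and 0 called by edgeR (1.01% of all genes), with 3 at an unadjusted p under 0.05 (11.0% of all genes) and 1 called by DESeq2. FOS there had the largest estimate, 3.92 ± 1.12 (adjusted p = 0.0841), and with the block FOS (3.77 ± 0.86, adjusted p = 0.0114) and EGR1 (2.13 ± 0.45, adjusted p = 0.00704) were called, as were 5.06% of all genes. In TMD8 FOSB was higher without overlap (7.34% of all genes) and ATF3 lower (10.6%), and 0 members were called by edgeR (2.17% of all genes), 1 had an unadjusted p under 0.05 (12% of all genes) and 0 were called by DESeq2. In Toledo FOS and IER2 were higher without overlap (6.54% of all genes), and 0 were called by edgeR (5.47%), the lowest adjusted p being 0.0616 for IER2 at 1.15 ± 0.37, with 2 at an unadjusted p under 0.05 (17.0% of all genes) and 1 called by DESeq2. With the block IER2 and JUND were called in Toledo, as were 6.04% of all genes, where the numbers did not pair the libraries. With OTX015, 0 members were called in any line by edgeR or by DESeq2, against 0.125% of all genes in DOHH2, 0.0702% in OCILy10, 0.390% in TMD8 and 3.09% in Toledo. Members at an unadjusted p under 0.05 numbered 4, 3, 1 and 3 of 10 in the same order, against 7.73%, 7.57%, 7.0% and 13.7% of all genes. The counts of 1 and 2 in TMD8 and Toledo with NEO2734, and of 1 in TMD8 with OTX015, are near those shares. DESeq2 gave no adjusted p for FOS, FOSB and EGR3 in DOHH2 with either inhibitor, nor for FOSB in TMD8 with OTX015. Its calls cover only members that have an adjusted p.

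Estimates for JUN and ATF3 differed in sign between lines, and that difference was not called. An F-test over the 4 lines with NEO2734 gave adjusted p = 0.282 for JUN, 0.313 for ATF3 and 0.564 for EGR2, whose unadjusted p-values were 0.000660, 0.00192 and 0.0202. Of all genes, 0.0156% were called in that test and 6.11% had an unadjusted p under 0.05, against 3 of 10 members. DESeq2 called JUN and ATF3 in the same test, and edgeR with the block within line called ATF3. With OTX015, 0 members and 0% of genes were called, and JUN and ATF3 had an unadjusted p under 0.05, as did 3.73% of genes.

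**Figure D5:**
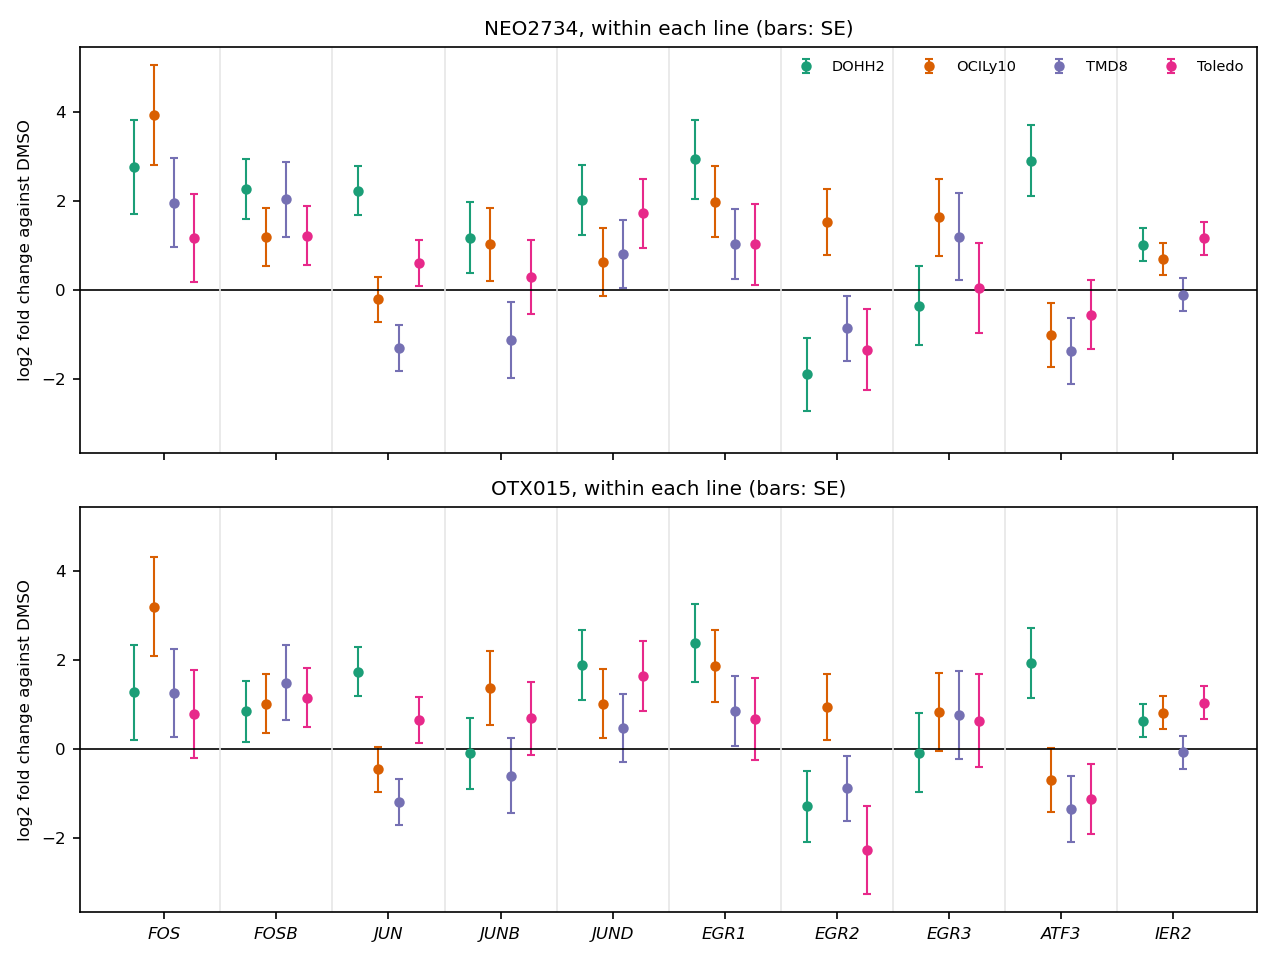
Log2 fold change against DMSO within each line, for each member, with NEO2734 (top) and OTX015 (bottom); bars are SE and colours are lines. JUN and ATF3 lie above 0 in DOHH2 and below 0 in OCILy10 and TMD8, whereas FOS, FOSB, JUND and EGR1 lie above 0 in every line.

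OTX015 and NEO2734 were not told apart on any member. Of the 10 members 0 were called by edgeR and 0 had an unadjusted p under 0.05, while 0.0312% of all genes were called and 3.89% had an unadjusted p under 0.05, and DESeq2 called 0 members. The largest difference was that of FOS, 0.80 higher with NEO2734 (log2, 95% interval -0.19 to 1.80), followed by FOSB at 0.53 (-0.17 to 1.23). For JUND the difference was 0.02 (-0.75 to 0.79), and for IER2 0.07 (-0.30 to 0.44). In DOHH2 the NEO2734 libraries of FOS and FOSB lay above all OTX015 libraries, as did those of 2.06% of all genes. No dose was given, so equal exposure cannot be assumed.

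No member was called with CB103 in OCILy10. By edgeR 0 of 10 were called and 0 had an unadjusted p under 0.05, DESeq2 called 0, and 0% of all genes were called, with 2.13% at an unadjusted p under 0.05. EGR1 had 9.91, 1.902 and 1.84 CPM with CB103 and FOS had 0.431, 2.28 and 0.921. The estimates were -0.68 (95% interval -2.33 to 0.97) for EGR1 and 1.92 (-0.44 to 4.29) for FOS, so sizeable changes are inside both intervals. JUN was lower in all 3 CB103 libraries, at 24.1, 26.2 and 22.1 CPM, than in the DMSO ones, at 27.9, 30.5 and 36.1, as were 1.31% of all genes. For replicate 1 of this group a second deposited table holds other counts, and the estimates turn on which table is used. With the second table the EGR1 estimate was 5.85 ± 1.40 (adjusted p = 0.0769), of the opposite sign, and that of FOS 6.41 ± 1.41 (adjusted p = 0.0593). The JUN estimate was then 1.10 ± 0.61 (adjusted p = 0.977) in place of -0.38 ± 0.51. In that fit 0 members were called by edgeR, as were 0.125% of all genes, and 7 of 10 members had an unadjusted p under 0.05, all of them higher with CB103, as did 5.96% of genes. Which table holds the right counts was not tested, and the values of that column are given with the further observations.

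The vehicle levels themselves set the lines apart. Between DMSO groups, FOSB, JUN, EGR1, EGR2 and ATF3 differed (5 of 10 members), as did 48.1% of all genes, so the share is near the background. ATF3 averaged 115 ± 73.4 CPM (SD, n = 3) in TMD8, 86.7 ± 47.5 in OCILy10, 17.6 ± 24.5 in Toledo and 13.1 ± 5.49 in DOHH2. TMD8 and OCILy10 were each above DOHH2 (3.19 ± 0.80 and 2.78 ± 0.79 on the log2 scale, adjusted p = 0.00292 and 0.00756) and each above Toledo, while neither TMD8 and OCILy10 nor Toledo and DOHH2 were called apart. OCILy10 was above Toledo by 2.22 (adjusted p = 0.0444), and that call was lost without any 1 of the OCILy10 DMSO libraries or without Toledo DMSO replicate 1 or 3 (adjusted p from 0.0503 to 0.256). The Toledo mean rests on replicate 2, and without that library the difference was 4.58 (adjusted p = 0.000227). TMD8 was above Toledo by 2.64 (adjusted p = 0.0115), which was lost without TMD8 DMSO replicate 3 (0.0805) or Toledo DMSO replicate 1 (0.0782) or 3 (0.0595). JUN averaged 43.7 ± 34.3 CPM in TMD8, 31.5 ± 4.21 in OCILy10, 13.8 ± 10.3 in Toledo and 6.49 ± 3.97 in DOHH2. DOHH2 was below TMD8 (adjusted p = 0.000283) and OCILy10 (adjusted p = 0.00155), and TMD8 above Toledo (adjusted p = 0.0206), the last call being lost without TMD8 DMSO replicate 3 (adjusted p = 0.328) or Toledo DMSO replicate 1 (0.134) or 3 (0.0802). EGR2 averaged 26.7 ± 5.81 CPM in TMD8, 7.68 ± 4.12 in DOHH2, 4.93 ± 2.02 in OCILy10 and 1.93 ± 1.41 in Toledo, with TMD8 above Toledo (adjusted p = 0.00109) and above OCILy10 (adjusted p = 0.0214). The call against OCILy10 was lost without OCILy10 DMSO replicate 2 (adjusted p = 0.0850) or 3 (0.0739) or TMD8 DMSO replicate 1 (0.0525) or 3 (0.0520). EGR1 averaged 14.5 ± 16.3 CPM in TMD8, where replicate 1 had 33.3 and the other 2 libraries 4.99 and 5.29. Without that library TMD8 no longer differed from DOHH2 (adjusted p = 0.649) or Toledo (adjusted p = 0.409). The call against DOHH2 was also lost without any 1 of the DOHH2 DMSO libraries (adjusted p from 0.0615 to 0.153), and that against Toledo without Toledo DMSO replicate 1 (0.144) or 3 (0.0501). FOSB was lower in TMD8 than in each other line. The FOSB call against OCILy10 was lost without OCILy10 DMSO replicate 3 (adjusted p = 0.112) or TMD8 DMSO replicate 2 (0.0623) or 3 (0.0693), and that against DOHH2 without DOHH2 DMSO replicate 1 (0.0955). JUNB was higher in DOHH2 than in OCILy10 (27.1 ± 23.6 against 4.499 ± 2.45 CPM, adjusted p = 0.0236), a call lost without DOHH2 DMSO replicate 2 (0.232) or OCILy10 DMSO replicate 1 (0.0795) or 3 (0.0901). Of all genes, 30.1% were called between DOHH2 and OCILy10, 28.5% between DOHH2 and TMD8, 20.8% between OCILy10 and TMD8, 15.9% between OCILy10 and Toledo and 24.9% between TMD8 and Toledo, and DOHH2 and Toledo had 0 called members by edgeR and 2 by DESeq2, with 23.5% of genes. Without the mixed Toledo DMSO replicate 2, edgeR called DOHH2 above Toledo for JUNB (2.83, adjusted p = 0.0395), EGR2 (2.98, 0.0379) and EGR3 (4.51, 0.0204). OCILy10 was then called above Toledo for JUN (2.05, adjusted p = 0.00852) and below it for FOS (-3.29, 0.0396). With all libraries, JUND and IER2 were not called between the lines (adjusted p = 0.870 and 0.337).

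Other genes of the pathway, in lists written with earlier results of these data known, moved in part. Of 18 kinases and factors upstream of the members, all tested, 5 were higher and 2 lower with NEO2734, where 9.29% of all tested genes were higher and 11.2% lower. Among them MAPK8, a JUN kinase, rose by 0.86 ± 0.11 (adjusted p = 2.25e-06), RPS6KA5, a kinase of CREB1 and histone H3, by 0.89 ± 0.16, and MAP2K1, an ERK kinase, by 0.62 ± 0.11. ELK3, a ternary complex factor, fell by 0.97 on the log2 scale. With OTX015, MAPK8, RPS6KA5, MAP2K1 and CREB1 rose, and 0 fell, where 5.53% of all genes rose and 6.06% fell. Of 11 other partners of AP-1, 9 were tested and 1 was higher and 2 lower with NEO2734. BATF and BATF3, which pair with JUN proteins in lymphocytes, fell by 2.40 and 2.31 (adjusted p = 0.00674 and 0.000903), and ATF7 rose by 0.42 ± 0.11. BATF and BATF3 fell with OTX015 as well, by 2.34 and 2.12. Of 20 other rapid-response genes, 16 were tested, and 5 were higher and 2 lower with NEO2734. ZFP36, which speeds the decay of cytokine mRNAs, rose by 1.04 ± 0.19 and IER3 by 1.38 ± 0.33, while MYC fell by 1.38 and TRIB1 by 0.76. ZFP36, IER3 and BTG2 rose and MYC fell with OTX015. Of 14 feedback inhibitors 12 were tested, and with NEO2734 DUSP10 alone was called, at 0.99 ± 0.32, while 20.5% of all genes were called in either direction. Of 6 heat shock genes, 5 were tested and 0 called by edgeR with either compound. At an unadjusted p under 0.05 stood 1 of the 5 with each compound, the chaperone gene HSPH1, at -0.50 ± 0.18 with NEO2734 (edgeR adjusted p = 0.0502) and -0.37 ± 0.18 with OTX015 (edgeR adjusted p = 0.202). Median changes with NEO2734 were 0.26 for the upstream list, -0.50 for the AP-1 partners and 0.35 for the rapid-response list, against -0.02 for all tested genes.

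The genes most like each member were found over the 13 group means of log2 CPM, after each line's own mean was taken off, for members whose mean reached 10 CPM in some group. JUND was nearest to CCDC82 (Pearson r = 0.973), EGR1 to DHRS2 (0.973), IER2 to TSPYL2 (0.973), EGR2 to VASP (0.935), JUNB to ABHD14B (0.931), ATF3 to PTPN1 (0.924) and JUN to OCRL (0.914). Among the members the closest pairs were FOS and FOSB (0.897), JUND and IER2 (0.892), FOSB and EGR1 (0.884) and JUN and ATF3 (0.882), and EGR3 and ATF3 were the most opposed (-0.612). The points share libraries and depth, and the values describe these 13 groups.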

How the data were processed

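RNA was sequenced from 39 libraries. The authors deposited raw read counts per gene for 15808 genes. STAR, edgeR and the build hg38 are listed, with no role or version, in the submitters' processing notes. The counts were tested as deposited with edgeR 4.0.16 in R 4.3.3, using TMM scaling, the filter on low counts by group, 1 model of 13 groups and the quasi-likelihood test. P-values were adjusted by Benjamini-Hochberg over 12814 genes, and an adjusted p under 0.05 was called. CPM are TMM-scaled, and CPM per kb use GENCODE 29 exon lengths. The contrasts were each compound against DMSO within a line and averaged over the 4 lines, NEO2734 against OTX015, and DMSO between lines. DESeq2 1.42.0, other filters and scalings, depth classes, the replicate block, left-out libraries and a second deposited table were the alternatives. The fit was tested on simulated data. All 10 members are named whatever their value, and from each pathway list up to 4 called genes with the smallest adjusted p. Members and lists were chosen with earlier results of these data known. Same-numbered libraries deviated together (every correlation over 0.1) in DOHH2, TMD8 and between OCILy10 DMSO and NEO2734, and not in Toledo. Same-numbered pairs of 1 depth class had a median correlation of 0.675 and those of different class -0.568, while differently numbered pairs of 1 class had 0.5275, with 33 of 34 over 0.1. Counting intervals cover counting error only.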

Additional observations from a re-analysis of the deposited data

Results flagged for a closer look

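A second deposited table held the same counts as the first in 38 of 39 columns. The exception was OCILy10 CB103 replicate 1, with a total of 5474462 counts in place of 11430777, and of the comparisons above that column entered only those named as made with the second table. In it 8 of 10 members stood above every OCILy10 DMSO library, on CPM by library total, and 7 of them above all other 38 libraries. EGR1 measured 920 CPM there against 10.1 in the first table and at most 54.1 in any other library. FOS measured 49.0 CPM against 0.437 and at most 11.3. EGR2 stood at 109 CPM and EGR3 at 45.1, against 5.16 and 2.97 in the first table. JUN stood at 98.5 CPM, JUNB at 49.9, FOSB at 9.32 and IER2 at 72.9. JUND, at 42.6 CPM, lay within the range of the OCILy10 DMSO libraries (14.3 to 50.4), and ATF3, at 23.6, below the lowest of them (57.4). HEXIM1 and MYC were also below, at 5.66 and 29.4 CPM against lowest OCILy10 DMSO values of 33.1 and 108. By the ratio to the highest OCILy10 DMSO library, EGR1 ranked 1, FOS 2, EGR2 12 and EGR3 18 among tested genes. Genes private to OCILy10 had a median of 63.3% of their OCILy10 level in this column, and those of the other 3 lines at most 0.331%. What this column holds was not tested.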

How the results depend on the processing

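Counts of called members are given here against the reported ones, and the cause of each move was not tested. FOSB, called by edgeR with OTX015 over the 4 lines, was not called by DESeq2 (adjusted p = 0.0788). With the second table, edgeR no longer called EGR1 (1.77 ± 0.66, adjusted p = 0.0617) or IER2 (0.71 ± 0.26, adjusted p = 0.0541) with NEO2734 over the 4 lines. With OTX015 it called JUND alone (adjusted p = 0.0283). The column that differs in that table belongs to no group of either contrast. Calls in deep libraries alone are not counted here. Averaged over the lines, the 5 members called with NEO2734 became 4 without the 3 mixed libraries and 3 with the second table. They stayed 5 with any 1 library left out. The 5 called with OTX015 became 3 without the 3 mixed libraries and 1 with the second table. Their range was 2 to 5 when 1 library was left out.

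With the replicate block the count with NEO2734 went from 2 to 5 in DOHH2, 0 to 1 in OCILy10 and 0 to 2 in Toledo, and with the block within line to 7, 2 and 2. The block within line gave 1 with OTX015 in DOHH2, OCILy10 and Toledo each, and 1 for the line difference with NEO2734. Between DMSO groups the block gave 1 for DOHH2 against Toledo and 2 for OCILy10 against Toledo, and the block within line 3 and 6.

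With NEO2734 in DOHH2, deep libraries gave 0, depth class as a factor 5, the set without the mixed libraries 1 and none with the second table (0), with 0 to 3 when 1 library was left out. DESeq2 called EGR1 in DOHH2 besides JUN and ATF3 (adjusted p = 0.0126). In OCILy10 DESeq2 and the depth factor gave 1 each. In Toledo DESeq2 and shallow libraries gave 1 and the depth factor 2, with 0 to 1 when 1 library was left out. With OTX015 in DOHH2 and in Toledo, shallow libraries and the depth factor gave 1. DESeq2 gave 2 for the line difference with NEO2734.

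Between DMSO groups the 5 members of the F-test became 3 with the second table. DOHH2 against TMD8 went from 4 to 2 in shallow libraries (2 to 4 with 1 left out). DOHH2 against Toledo went from 0 to 2 by DESeq2, 1 with no filter, 1 with at least 5 CPM, 1 in shallow libraries, 2 with the depth factor and 3 without the 3 mixed libraries (0 to 3 with 1 left out). OCILy10 against TMD8 went from 2 to 1 by DESeq2 and 0 when the second table was used (0 to 2 with 1 left out). OCILy10 against Toledo went from 1 to 2 by DESeq2, 2 with at least 5 CPM, 4 with the depth factor and 3 without the 3 mixed libraries (0 to 3 with 1 left out). TMD8 against Toledo went from 5 to 3 in shallow libraries and with the second table (2 to 5 with 1 left out). Where leaving out 1 library left a group with 2, the spread was pooled over all groups. The lowest counts, such as 6 FOS counts over the OCILy10 DMSO libraries, limit what FOS and FOSB can show.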
